A study of Mus musculus with 5 samples.

Results

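The cytotoxic granule genes described here are 8 mouse genes chosen by name: Gzma, Gzmb and Gzmk, which encode granzymes; Prf1, which encodes perforin; Srgn, the granule proteoglycan serglycin; Nkg7, a membrane protein of cytotoxic granules; Ctsw, cathepsin W; and Serpinb9, an inhibitor of granzyme B. All 8 were found by their NCBI identifiers among the 27179 genes counted, and all 8 passed the filter on low counts that left 12747 genes for testing. Transcripts were counted in 3 libraries of group 3 innate lymphoid cells (ILC3) and 2 libraries labelled CD4 T cells, from wild type C57BL/6 mice, with no treatment named in the labels. ILC3 were sorted as CD45+, CD3- and CD127+ cells positive for a GFP reporter, and CD4 T cells as CD45+CD3+CD4+. The wild type genotype does not account for this reporter, whose strain is not reported here. The series title places the study in the intestine, but the labels used here name neither the tissue that was sorted nor the age of the mice. The cells came from 3 mice, and no label ties a library to a mouse. The p-values therefore measure how far these libraries spread, and some of that spread may be technical.

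Cytotoxic lymphocytes store granzymes, which are serine proteases, together with perforin in secretory lysosomes, where both are packed onto serglycin. On contact with a target cell the granules fuse with the plasma membrane, perforin makes pores, and the granzymes enter and cleave proteins of the target. Cytosolic serpins such as the Serpinb9 product protect the cell that makes the granules from protease that leaks out of them. Natural killer cells and CD8 T cells are the classical users of this machinery, whereas ILC3 and CD4 T cells are better known for secreted cytokines.

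The libraries held 15123715 to 25956023 counts, and levels are given as CPM (counts per 1000000 counts) after TMM scaling of library sizes. In the check of the labels, the CD127 gene Il7r was called higher in ILC3, and Cd4, Cd3d and Ptprc were called lower, while Cd3e and Cd3g were not called and overlapped between the groups. The libraries labelled CD4 T also held transcripts known from other cells: Cd8b1 at 336 and 433 CPM against 142 and 90.1 CPM for Cd4, and the plasmacytoid dendritic cell gene Siglech at 745 and 814 CPM. ILC3 replicate 3 stood apart by the mast cell protease gene Cma1, at 187 CPM there and at 0 counts in the other 4 libraries. Immunoglobulin and T cell receptor genes took 6.55%, 29.8% and 24.2% of counts in ILC3 replicates 1 to 3. In CD4 T replicates 1 and 2 they took 17.0% and 10.2%. Jchain, a B and plasma cell marker, was 17875, 100425 and 82251 CPM in ILC3 and 34269 and 20826 CPM in CD4 T. ILC3 and CD4 T therefore stand below for the labels of the libraries. In such bulk samples fewer cells of a type and less RNA per cell cannot be told apart.

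The 8 genes did not move as a block. Serpinb9 and Ctsw were higher in ILC3, Gzma and Gzmk were lower, and Gzmb, Prf1, Srgn and Nkg7 did not pass the test (edgeR quasi-likelihood test, Benjamini-Hochberg adjusted p under 0.05 over all tested genes). Of all tested genes, 6.46% were called higher and 7.21% lower in ILC3, a share of 13.7% in either direction. The groups did not overlap for the same 4 called members, against 55.0% of all tested genes. The 824 genes called higher and 919 called lower became 384 and 1502 when libraries were scaled by total size alone, which moved the median log2 difference (ILC3 over CD4 T) of all tested genes from -0.10 to -0.60. The median of the 8 members was -0.16. The plot of levels by library shows the 8 genes side by side.

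**Figure D1:**
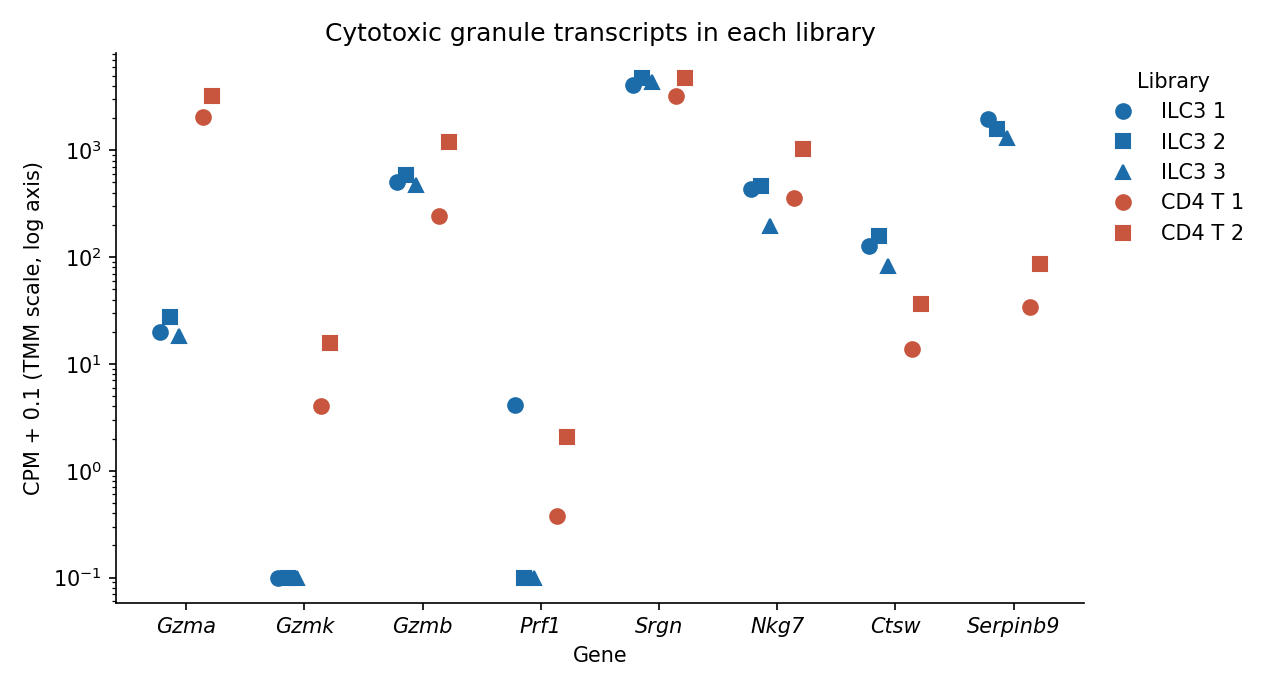
Level of each cytotoxic granule gene in each library, as CPM plus 0.1 on a log axis, with 1 point per library for 3 ILC3 (blue) and 2 CD4 T (red) libraries. Gzma lay at 2065 and 3199.8 CPM in CD4 T and at 27.2 CPM or less in ILC3, Serpinb9 showed the opposite order, and the groups overlapped for Gzmb, Prf1, Srgn and Nkg7.

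The start regions of the genes at the ends and in the middle of this range are shown because genes of 1 granule programme were split between the groups. A 300-base window, from 250 bases before to 50 bases after the start site, was taken from the RefSeq table for GRCm38.p6, which held 8 windows for 7 of the members. The strand is that of the gene and the letters run 5′ to 3′. Capitals mark matches, on either strand, to the RUNX core TGTGGT, the AP-1 site TGANTCA, the T-box core AGGTGT or the cyclic AMP response element TGACGTCA. The window of Gzma is chr13:113100932-113101231 (minus strand), that of Gzmk chr13:113180916-113181215 (minus strand), that of Gzmb chr14:56262285-56262584 (minus strand) and that of Serpinb9 chr13:33004291-33004590 (plus strand), which lies within the annotated span of the gene.
Gzma: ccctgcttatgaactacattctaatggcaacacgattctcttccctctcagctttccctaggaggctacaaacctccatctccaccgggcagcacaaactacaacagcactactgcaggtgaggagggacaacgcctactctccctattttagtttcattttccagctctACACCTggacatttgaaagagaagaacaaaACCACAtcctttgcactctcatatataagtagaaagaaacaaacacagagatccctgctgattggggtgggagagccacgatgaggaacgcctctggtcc
Gzmk: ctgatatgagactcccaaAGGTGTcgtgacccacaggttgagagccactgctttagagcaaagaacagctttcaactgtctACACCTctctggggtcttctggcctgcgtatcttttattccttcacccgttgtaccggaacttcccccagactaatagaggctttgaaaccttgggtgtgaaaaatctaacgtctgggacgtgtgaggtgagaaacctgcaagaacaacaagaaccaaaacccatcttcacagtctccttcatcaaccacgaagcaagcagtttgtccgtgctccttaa
Gzmb: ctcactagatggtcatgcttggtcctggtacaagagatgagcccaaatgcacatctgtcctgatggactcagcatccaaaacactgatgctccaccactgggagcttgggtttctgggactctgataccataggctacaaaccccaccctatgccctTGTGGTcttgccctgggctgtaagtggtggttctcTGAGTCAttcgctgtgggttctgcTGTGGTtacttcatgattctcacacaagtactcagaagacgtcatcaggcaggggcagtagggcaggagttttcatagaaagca
Serpinb9: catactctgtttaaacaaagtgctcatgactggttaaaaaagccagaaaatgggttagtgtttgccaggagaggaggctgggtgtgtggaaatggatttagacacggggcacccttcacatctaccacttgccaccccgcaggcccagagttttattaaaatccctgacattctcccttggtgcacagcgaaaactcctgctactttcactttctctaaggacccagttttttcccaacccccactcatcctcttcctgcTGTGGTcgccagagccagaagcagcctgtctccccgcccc

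In the Gzma window a RUNX core began 50 bases and a T-box core 80 bases before the start site. The Gzmk window held a T-box core at 169 and another at 232 bases before the start site. Gzmb had RUNX cores at 93 and 34 bases and an AP-1 site at 58 bases before the start site. No match overlapped another in the 4 windows. In Serpinb9 the 1 match was a RUNX core 11 bases into the transcript. Over the 8 member windows, 6 held a RUNX core, 4 a T-box core, 1 an AP-1 site and 0 a cyclic AMP response element. Among all 32851 windows of this length in the table the shares were 16.8% for the RUNX core, 13.7% for the T-box core, 7.81% for AP-1 and 1.79% for the cyclic AMP response element. A match is a run of letters and not a measured binding site.

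Granzyme A transcripts were abundant in the CD4 T libraries and scarce in ILC3. Gzma (NCBI gene 14938, chromosome 13, 113093824 to 113100981 in GRCm38) encodes a tryptase-like granzyme. It stood at 19.6, 27.2 and 18.1 CPM in ILC3 replicates 1 to 3 and at 2065 and 3199.8 CPM in CD4 T replicates 1 and 2. Every ILC3 library was thus far below both CD4 T libraries, and the CD4 T libraries differed 1.55-fold from each other. The mean of ILC3 was 21.6 ± 4.85 CPM (SD, n = 3) and that of CD4 T 2632 ± 803 CPM (SD, n = 2), which is 122-fold more. The log2 fold change was -6.93 (SE 0.411, 95% interval -7.91 to -5.95, edgeR adjusted p = 0.000753). With 1 library left out at a time it lay between -7.20 and -6.56 and stayed called each time.

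Gzmk, a second tryptase-like granzyme, lies 70648 bases from Gzma on the same strand (NCBI gene 14945, chromosome 13, 113171630 to 113180965). No ILC3 library held a Gzmk count, and the CD4 T libraries held 99 and 285 counts, or 3.92 and 15.4 CPM. The limit that a count of 0 sets is 3 counts, or 0.108 to 0.192 CPM in these libraries. With both CD4 T libraries pooled and set against 3 counts over the summed ILC3 libraries, Gzmk was at least 177-fold lower in ILC3. This bound does not cover CD4 T replicate 1 alone, at 3.92 CPM. Gzmk was called lower in ILC3 (edgeR adjusted p = 0.025). Leaving out ILC3 replicate 1 (edgeR adjusted p = 0.061) or 2 (0.0546), or CD4 T replicate 1 (0.0578) or 2 (0.103), ended this call. Both neighbours were thus lower in ILC3, but the Gzmk level in CD4 T was a small fraction of the Gzma level, at 6.97 ± 5.86 against 2617 ± 798 CPM per kilobase of exon (SD, n = 2).

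Granzyme B did not separate the groups. Gzmb (NCBI gene 14939, chromosome 14, 56258836 to 56262334) encodes the granzyme that cleaves after aspartate and activates caspases. It was 503, 586 and 477 CPM in ILC3 and 242 and 1192 CPM in CD4 T. The 3 ILC3 values lay close together and inside the wide gap between both CD4 T libraries, which differed 4.92-fold. The log2 difference was -0.46 (SE 0.607, 95% interval -1.91 to 0.99, edgeR adjusted p = 0.651). Its direction rested on single CD4 T libraries. Leaving out CD4 T replicate 1 gave -1.19 (edgeR adjusted p = 0.0428), and leaving out replicate 2 gave 1.12 (edgeR adjusted p = 0.0353).

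Since each library has its own scale, the granzymes were also compared within each library, per kilobase of exon. The comparison took all 10 granzyme genes in the table and no scaling between libraries enters it. Gzma made up 2.88%, 3.48% and 3.11% of the granzyme counts per kilobase in the ILC3 libraries, and 92.3% and 78.9% in the CD4 T libraries. The Gzmb share stood at 51.8%, 52.5% and 57.4% in the ILC3 libraries and at 7.58% and 20.6% in the CD4 T libraries. The remainder in ILC3 was almost wholly Gzmc, at 45.0%, 43.9% and 39.1%, against 0.0438% and 0.246% in CD4 T. The plot of granzyme shares shows a Gzmb and Gzmc mixture in every ILC3 library and a Gzma majority in both CD4 T libraries.

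Of plain counts, not per kilobase, Gzma took from 2.46% (exact binomial 95% interval 2.26% to 2.68%) to 2.96% (2.69% to 3.25%) of granzyme counts in ILC3. In CD4 T it took 89.3% (89.1% to 89.6%) in replicate 1 and 72.4% (72.1% to 72.7%) in replicate 2. Such intervals, and the floors of 3 counts, cover counting error only, because reads amplified without molecular identifiers can repeat 1 molecule. An exact two-sided permutation test of the difference in mean share per kilobase gave p = 0.1 for each of Gzma, Gzmb and Gzmc (0.1 after Benjamini-Hochberg adjustment over the 3 shares), the smallest value that the 10 assignments of 3 against 2 libraries allow. The groups overlapped in none of these 3 shares, which are parts of 1 total and so are not independent results. For 55.0% of all tested genes the levels in CPM did not overlap either. Summed over the 10 genes, granzyme transcripts stood at 675, 777 and 579 CPM per kilobase in ILC3 and at 2225 and 4034 in CD4 T.

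**Figure D2:**
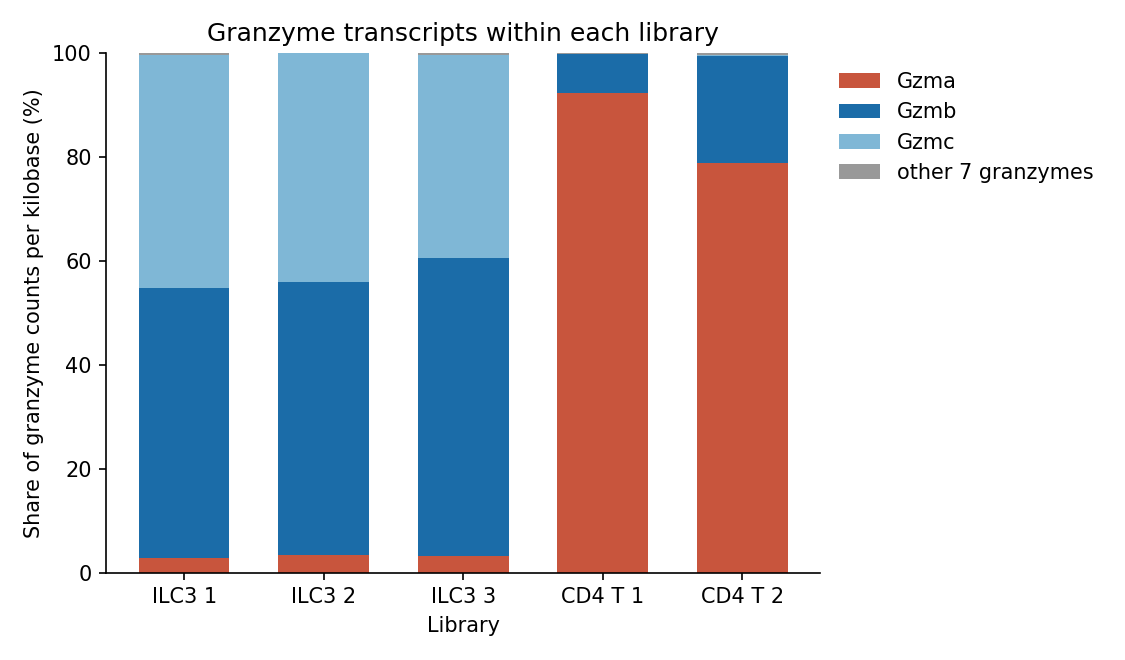
Share of each granzyme in the granzyme counts per kilobase of exon, in percent, with 1 stacked bar per library and the other 7 granzymes summed in grey. Gzma holds 78.9% or more in the CD4 T libraries and 3.48% or less in the ILC3 libraries.

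Perforin transcripts were low in the libraries that held any, and 2 ILC3 libraries held none. Prf1 (NCBI gene 18646, chromosome 10, 61297751 to 61304684) encodes the pore-forming protein that lets granzymes into a target cell. It had 111, 0 and 0 counts in ILC3 replicates 1 to 3 and 7 and 36 counts in CD4 T replicates 1 and 2. One ILC3 library, replicate 1 at 4.005 CPM, lay above both CD4 T libraries at 0.277 and 1.95 CPM, and the other two held none. The log2 difference of 0.28 had a 95% interval of -5.59 to 6.14 (edgeR adjusted p = 0.953), which spans large differences in either direction. Without CD4 T replicate 1 it was -0.53, and without ILC3 replicate 1 the gene no longer passed the filter.

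Srgn, whose product binds granzymes and perforin in the granule, was the most abundant member in CPM in every library. Srgn (NCBI gene 19073, chromosome 10, 62493833 to 62527445) stood at 4113, 4716 and 4335 CPM in ILC3 and at 3182 and 4741 CPM in CD4 T. The ILC3 values fell inside the range of both CD4 T libraries. The log2 difference was 0.15 (SE 0.319, 95% interval -0.61 to 0.91, edgeR adjusted p = 0.792), and its sign changed to -0.36 with library size alone and to -0.11 without CD4 T replicate 1. Serglycin is made by many blood cells that store granules, mast cells among them.

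Nkg7, whose product takes part in granule exocytosis, likewise overlapped between the groups. Nkg7 (NCBI gene 72310, chromosome 7, 43437138 to 43438246) was 429, 463 and 197 CPM in ILC3 and 357 and 1028 CPM in CD4 T. ILC3 replicate 3 was the lowest library and CD4 T replicate 2 the highest. The log2 difference was -0.93 (SE 0.551, 95% interval -2.25 to 0.38, edgeR adjusted p = 0.286). It was 0.04 when CD4 T replicate 2 was left out. Per kilobase of exon and within a library, Nkg7 exceeded the CD3 chain gene Cd3g in every library. The excess was 4.24-fold, 3.52-fold and 4.38-fold in ILC3, against 4.56-fold and 2.81-fold in CD4 T.

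Serpinb9 was the member with the clearest excess in ILC3. Serpinb9 (NCBI gene 20723, chromosome 13, 32997061 to 33017955) encodes a cytosolic serpin that inactivates granzyme B. It was 1943, 1567 and 1307 CPM in ILC3 and 34.1 and 85.1 CPM in CD4 T. Each ILC3 library lay far above each CD4 T library. The log2 difference was 4.75 (SE 0.555, 95% interval 3.43 to 6.08, edgeR adjusted p = 0.00578), a 26.9-fold difference of 1606 ± 320.0 CPM (SD, n = 3) against 59.6 ± 36.0 CPM (SD, n = 2). It was called with each library left out in turn, and leaving out CD4 T replicate 2 raised the log2 difference to 5.57. Members of the Serpinb9 family resemble each other, so the split of reads between copies is uncertain; the nearest copy counted, Serpinb9b, held 2 counts or fewer in each library.

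Within each library, Serpinb9 was also set against its target Gzmb, per kilobase of exon. Serpinb9 exceeded Gzmb 1.59-fold, 1.10-fold and 1.13-fold in ILC3 replicates 1 to 3. In CD4 T the order was the reverse, with Gzmb 17.3-fold and 34.1-fold above Serpinb9. The groups did not overlap in this ratio, which involves no scaling between libraries.

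Ctsw, a cysteine protease known from natural killer and CD8 T cells, was also higher in ILC3. Ctsw (NCBI gene 13041, chromosome 19, 5465043 to 5468628) was 126, 159 and 82.1 CPM in ILC3 and 13.7 and 36.1 CPM in CD4 T. The lowest ILC3 library was above the highest CD4 T library. The log2 difference was 2.2997 (SE 0.531, 95% interval 1.03 to 3.57, edgeR adjusted p = 0.0378). The call ended with any 1 ILC3 library left out (edgeR adjusted p = 0.0937, 0.0958 and 0.0562 for replicates 1 to 3), without CD4 T replicate 1 (0.104) and with library size alone (0.0642). Leaving out CD4 T replicate 2 gave a log2 difference of 3.17.

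**Figure D3:**
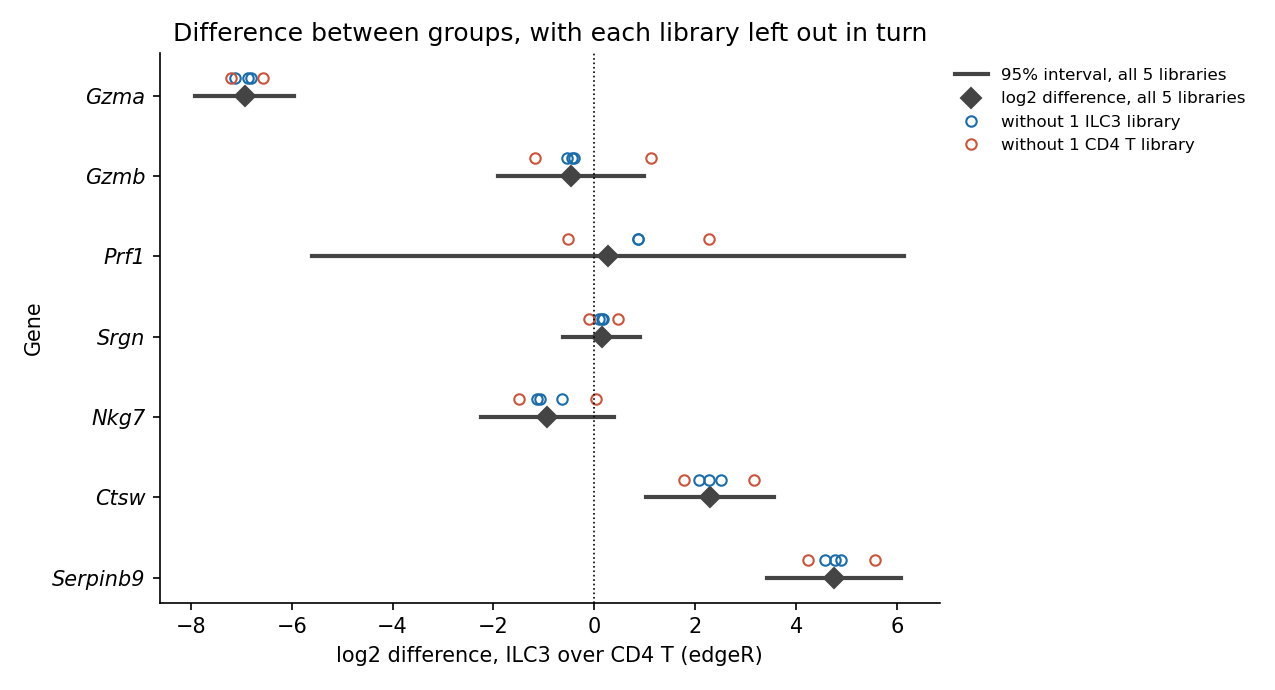
Log2 difference, ILC3 over CD4 T, for 7 cytotoxic granule genes: diamonds and bars give the edgeR value and its 95% interval with all 5 libraries, and open circles the value with 1 library left out. Gzmk is not drawn because no ILC3 library held a count; Gzmb lay at -1.19 or 1.12 depending on which CD4 T library was left out.

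Levels of different genes were ordered per kilobase of exon within each library. In ILC3, Srgn led with 1998 ± 139 CPM per kilobase (SD, n = 3), followed by Serpinb9 (460 ± 91.6), Nkg7 (397 ± 159) and Gzmb (364 ± 39.6). Nkg7 overlapped both its neighbours in this order, while Serpinb9 was above Gzmb in each library. Ctsw (64.9 ± 20.4) and Gzma (21.5 ± 4.82) came next, with Prf1 and Gzmk at the bottom. In both CD4 T libraries Gzma was first and Srgn second, at 2617 ± 798 and 1804 ± 502 CPM per kilobase (SD, n = 2), followed by Nkg7 (757 ± 519) and Gzmb (499 ± 468). Serpinb9 (17.1 ± 10.3), Ctsw (13.2 ± 8.38), Gzmk and Prf1 came last in that order in each. Gzma moved from sixth place in every ILC3 library to first in both CD4 T libraries. In CD4 T the ranges of Gzma and Srgn overlapped, as did those of Nkg7 and Gzmb, of Serpinb9 and Ctsw, and of Ctsw and Gzmk.

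The members also varied within a group. All 8 were higher in CD4 T replicate 2 than in replicate 1, from 1.49-fold for Srgn to 7.03-fold for Prf1, as were 48.9% of all tested genes. Over the same pair 4 of 5 CD8 T cell markers were higher in replicate 2, Cd3g among them (280 and 1310 CPM). Cd3e (54.9 and 201 CPM) and Cd8b1 (336 and 433 CPM) were higher too, and Cd8a was lower (245 and 189 CPM). The CD4 gene Cd4 was also lower, at 142 and 90.1 CPM. Among 8 natural killer markers 6 were higher in replicate 2 and 0 lower, with Klrd1 at 170.2 and 231 CPM. Of 8 plasmacytoid dendritic cell markers 7 were lower in replicate 2, Tcf4 among them (468 and 168 CPM), and Siglech was higher (745 and 814 CPM). In ILC3, 5 of the 8 were lowest in replicate 3, against 33.7% of all tested genes. Cd3g was 362, 470 and 161 CPM in ILC3 replicates 1 to 3. The part of these markers in the members' values was not tested.

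Other genes of the granule pathway were read from 5 lists with 39 genes in the table, of which 32 were tested. Among these 6 were called higher in ILC3, 4 lower and 22 were not called, beside 13.7% called among all tested genes. Their median log2 difference was -0.26. The gene Zfp683 of these lists was not analysed here. Of the 10 called genes, 9 lost the call without at least 1 library, and Zeb2 was the exception.

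Among the 7 other granzymes, 3 were tested, 1 was called higher and 0 lower. Gzmc, a granzyme gene 17188 bases from Gzmb on chromosome 14 (56231397 to 56241647), was 271, 305 and 203 CPM in ILC3 and 0.872 and 8.88 CPM in CD4 T. All ILC3 libraries were above both CD4 T libraries, and the log2 difference was 5.74 (SE 1.05, edgeR adjusted p = 0.0193). Leaving out CD4 T replicate 1 gave 4.87 and leaving out replicate 2 gave 8.22. Leaving out ILC3 replicate 1 (edgeR adjusted p = 0.0577) or 2 (0.0524) ended the call. The same count of 0 lower came from DESeq2, limma-voom and an unadjusted edgeR p under 0.05. Gzmd and Gzmn had no count in any library, and Gzme and Gzmg none in CD4 T. Genes of this granzyme cluster resemble each other, so reads may be split between copies.

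Among 7 tested genes of granule protease maturation and inhibition, 2 were higher and 1 was lower (median log2 difference -0.12). Both higher genes encode serpins. Serpinb1a, whose product inhibits neutrophil-type proteases, was 1350, 1190 and 1093 CPM in ILC3 and 1.59 and 49.1 CPM in CD4 T (log2 5.58, edgeR adjusted p = 0.0469). Serpinb6b was 1155, 966 and 645 CPM in ILC3 and 24.2 and 132 CPM in CD4 T (log2 3.56, edgeR adjusted p = 0.0333). For both serpins no value of 1 group reached the other. Without CD4 T replicates 1 and 2 in turn the log2 difference was 4.63 and 9.58 for Serpinb1a and 2.81 and 5.27 for Serpinb6b, and both calls were lost without any 1 ILC3 library (edgeR adjusted p from 0.0609 to 0.0994). Ctsl, a lysosomal cysteine protease, was lower in ILC3, at 244, 286 and 296 CPM against 549 and 671 CPM (log2 -1.15, edgeR adjusted p = 0.0414). The Ctsl call also ended without any 1 ILC3 library (edgeR adjusted p from 0.106 to 0.124).

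The machinery of granule biogenesis and release had 1 of 14 tested genes higher and 1 lower (median log2 difference -0.61). Snap23, a membrane fusion protein, was 190, 136 and 170.1 CPM in ILC3 and 49.9 and 81.0 CPM in CD4 T (log2 1.34, edgeR adjusted p = 0.048). This call ended without any 1 ILC3 library (edgeR adjusted p from 0.0935 to 0.119), without CD4 T replicate 1 (0.126) and with library size alone (0.211). Sytl2, which tethers granules to the membrane, had no count in ILC3 and 506 and 169 counts in CD4 T, or 20.1 and 9.15 CPM. It was called lower in ILC3 (edgeR adjusted p = 0.0135). For the pooled CD4 T libraries Sytl2 was at least 311-fold lower in ILC3, a bound that does not cover replicate 2 alone. With CD4 T replicate 1 left out its edgeR adjusted p was 0.093. Of the 2 death receptor ligands 0 were called, with edgeR, DESeq2 or limma-voom or at an unadjusted edgeR p under 0.05. Fasl was 90.5, 61.2 and 15.1 CPM in ILC3 and 13.5 and 85.5 CPM in CD4 T (log2 0.17, edgeR adjusted p = 0.921). Tnfsf10 stayed at 5.52 CPM or below in every library (log2 -0.18, edgeR adjusted p = 0.944).

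Of 6 tested regulators of the cytotoxic programme, 2 were higher and 2 lower in ILC3 (median log2 difference -1.67). Id2, an inhibitor of E proteins that all innate lymphoid cells need, was 4233, 3673 and 3763 CPM in ILC3 and 629.7 and 1239 CPM in CD4 T (log2 2.06, edgeR adjusted p = 0.0235). Stat4, which relays IL-12 signals, was 641, 458 and 524 CPM in ILC3 and 74.6 and 152 CPM in CD4 T (log2 2.25, edgeR adjusted p = 0.0202). With CD4 T replicate 2 left out this log2 difference was 2.87. Both calls ended without any 1 ILC3 library (edgeR adjusted p from 0.0578 to 0.0819) and with library size alone (0.0582 for Id2 and 0.0525 for Stat4). Zeb2, which acts with T-bet in effector differentiation, was 2.53, 3.27 and 3.80 CPM in ILC3, and its CD4 T levels were 44.4 and 42.5 CPM (log2 -3.76, SE 0.396, edgeR adjusted p = 0.00412). Prdm1, which encodes Blimp-1, was 7.79, 25.7 and 19.6 CPM in ILC3 and 105 and 56.5 CPM in CD4 T (log2 -2.19, edgeR adjusted p = 0.0457). The Prdm1 call ended without any 1 ILC3 library (edgeR adjusted p from 0.0753 to 0.0937) and without CD4 T replicate 1 (0.213). Eomes, the regulator known from natural killer cells, had 9, 9 and 0 counts in the ILC3 libraries, none in CD4 T, and was not tested.

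Markers of other cells that can carry granule transcripts were read beside the members. Natural killer markers summed to 905 to 1007 CPM in ILC3 and 192 to 290 CPM in CD4 T. The ILC3 sum rested mainly on Klrk1, which led the list at a mean of 710 CPM, and Ncr1, at a mean of 197 CPM. Klrd1 led in CD4 T, where it reached 170.2 and 231 CPM against a mean of 5.22 CPM in ILC3. Of 5 tested markers 2 were higher in ILC3 and 1 lower, and Klra8 and Itga2 had no count in ILC3, nor Klra8 and Eomes in CD4 T. Eomes had 9, 9 and 0 counts in ILC3 replicates 1 to 3. The markers of this list did not move together, so their sum does not measure natural killer cell content. CD8 T cell markers summed to 181 to 542 CPM in ILC3 and to 919 and 2139 CPM in CD4 T. Of these 5 markers 2 were called lower in ILC3, none was at 0 in a group and Cd3g led in both. The list includes Cd3e and Cd3g, which are not particular to CD8 T cells. Their ILC3 means were 51.9 CPM for Cd3e and 331 CPM for Cd3g. Cd8a and Cd8b1 had ILC3 means of 0.0315 and 0.416 CPM. Cd8a, which was chosen after its values were seen, had 9679 counts in CD4 T against 2 over the ILC3 libraries, which is 6693-fold by scaled counts (exact 95% counting interval 1852 to 55280).

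Plasmacytoid dendritic cell markers summed to 180 to 247 CPM in ILC3, led by Bst2, and to 3400 and 2445 CPM in CD4 T, led by Siglech. Of these 8 markers 7 were called lower in ILC3 and none was at 0 in a group. Macrophage and monocyte markers, led by Lyz2, summed to 131 to 189 CPM in ILC3 and 1390.2 and 2367 CPM in CD4 T, with 6 of 8 called lower and none at 0 in a group. B and plasma cell markers were dominated by Jchain, summed to 18157 to 101010 CPM in ILC3 and to 34701 and 21417 CPM in CD4 T, and 0 of 6 were called by edgeR or limma-voom, with 1 higher by DESeq2 and 1 higher at an unadjusted edgeR p under 0.05. Of 5 neutrophil markers, Mpo had 64 and 7 counts in CD4 T, all 5 were at 0 in ILC3 and the other 4 at 0 throughout.

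Mast cell and basophil markers summed to 14.8, 29.3 and 518 CPM in ILC3 replicates 1 to 3 and to 0 and 4.93 CPM in CD4 T. Cma1 led in ILC3 and Hdc in CD4 T. Of 11 markers 2 were tested; 0 were called by edgeR or limma-voom, with 1 higher by DESeq2 and 1 at an unadjusted edgeR p under 0.05. Among the 11, 8 were at 0 in CD4 T, and Mcpt1, Mcpt2 and Mcpt8 were at 0 in ILC3. The libraries with the most of each cell type's markers can be read from the plot of marker sums. Without ILC3 replicate 3, the library with the mast cell transcripts, the log2 differences were -6.81 for Gzma, 4.88 for Serpinb9 and 2.52 for Ctsw. The Ctsw call was lost (edgeR adjusted p = 0.0562), as it was without ILC3 replicate 1 (0.0937) or 2 (0.0958). The part of the cells behind any of these marker lists in the members' differences was not tested.

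**Figure D4:**
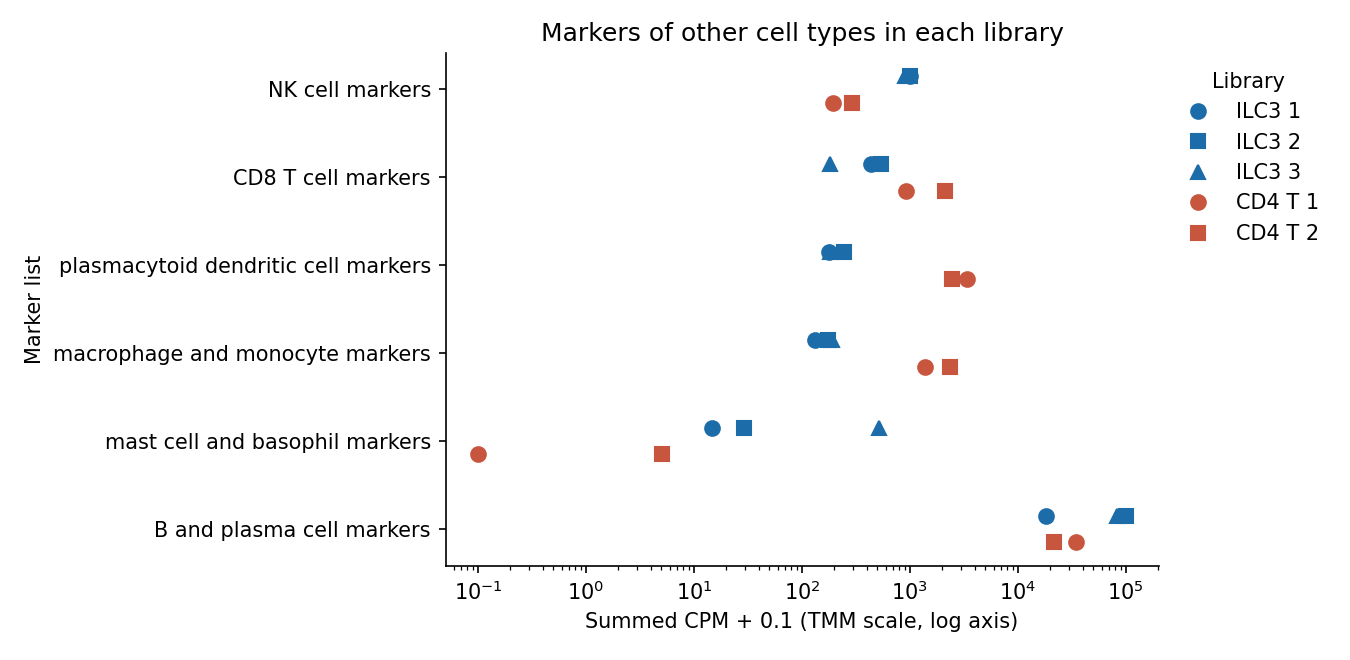
Summed level of the markers of each other cell type in each library, as CPM plus 0.1 on a log axis, for 3 ILC3 (blue) and 2 CD4 T (red) libraries. Plasmacytoid dendritic cell, macrophage and CD8 T cell markers were higher in both CD4 T libraries, where the CD8 list includes Cd3e and Cd3g. Mast cell markers reached 518 CPM in ILC3 replicate 3.

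For each member the gene with the most similar pattern over the 5 libraries was found among 6477 genes with a mean of at least 10 CPM. Likeness was the root mean square difference of log2 CPM, each gene centred on its own mean, so a smaller value is a closer match. Gzma was nearest to the IL-21 receptor gene Il21r (0.44), at 0.649 to 1.35 CPM in ILC3 and 170.4 and 134 CPM in CD4 T, and Gzmk to the chemokine gene Ccl5 (0.66). Ccl5 was 16.8, 10.2 and 7.83 CPM in ILC3 and 453 and 678 CPM in CD4 T. Serpinb9 was nearest to Mpzl1 (0.18), Ctsw to Tg (0.16), Nkg7 to Agfg1 (0.22) and Gzmb to Dipk1a (0.14). Srgn was nearest to Mthfsl (0.04) and Prf1 to Polr3f (1.08), the loosest of the matches. These matches are a description of 5 libraries.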

How the data were processed

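RNA of 5 sorted cell libraries was analysed. The authors deposited unnormalized whole-number counts for each gene. The library kit was the SMARTer Ultra Low Input kit V4, per the labels' protocols. The submitters' processing notes name CASAVA (1.8.2), STAR (2.3.0) and build mm10, which is GRCm38. How reads were counted, and whether by strand, is not given in the sources used here. Overlapping and antisense genes thus cannot be told apart. CPM, the floor of 3 counts and fold bounds use TMM-scaled library sizes. Of 27179 NCBI identifiers, 25275 were matched to symbols and positions in RefSeq GRCm38.p6.

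Genes were filtered with filterByExpr and scaled with TMM. They were tested in edgeR 4.0.16 (R 4.3.3) with the quasi-likelihood F test, checked on simulated counts. The design left 3 residual degrees of freedom. The p-values and intervals use the total from edgeR, which adds prior degrees of freedom estimated over all tested genes. Standard errors are the log2 difference divided by the square root of F. Exon length is the union of GENCODE M21 exons. The members, lists and tests were chosen with earlier results of these data known. Named are all members, called pathway genes (or the 2 most abundant of a list with none called), the top marker of each cell type and the nearest gene to each member. Cd8a, Cd8b1, Ncr1, Eomes, Tcf4, Tbx21, Runx3 and the serpin and chymase neighbours were added after their values were seen. One gene of the sort is not reported here. The 13 alternatives covered scaling, filters, DESeq2 1.42.0, limma-voom (limma 3.58.1), the replicate block, receptor segment genes left out and each library left out.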

Additional observations from a re-analysis of the deposited data

How the results depend on the processing

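The directions of Gzma and Serpinb9 and their calls held under all 13 alternatives (adjusted p from 9.73e-87 to 0.0157 and from 2.31e-24 to 0.0315). With single libraries left out, the numbers of genes called higher ran from 269 to 1712 and lower from 306 to 960, the log2 differences from -1.19 to 1.12 for Gzmb, 1.77 to 3.17 for Ctsw, -0.53 to 2.27 for Prf1, -0.11 to 0.48 for Srgn and -1.50 to 0.0386 for Nkg7, the adjusted p of Gzmk from 0.0446 to 0.103, and the pathway genes called higher from 0 to 8 and lower from 2 to 6. An arm left with 1 CD4 T library is assumed to vary like ILC3.

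With library size alone 384 genes were higher and 1502 lower, Srgn was -0.36, Ctsw 1.8001, and 3 pathway genes were higher. No filter gave 1250 genes higher. The DESeq2 Wald test gave 1914 higher and 1858 lower, with 7 pathway genes lower. Limma-voom gave 1317 higher and 1402 lower, and Prf1 at -1.83. The causes were not tested.

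The replicate block gave 215 genes higher and 305 lower, Gzmb 0.014, Prf1 -0.76, an adjusted p of 0.0771 for Gzmk, and 1 pathway gene higher and 2 lower. No label says that a number marks a shared mouse, so whether the numbers pair the libraries is unknown. Deviations of same-numbered libraries correlated at -0.02 and -0.03, which with 2 CD4 T libraries, whose deviations mirror each other, cannot settle it. The block leaves 1 residual degree of freedom. With 2 and 3 libraries a group, differences smaller than the intervals given were not detectable.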

Other observations

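Serpinb9 lies in a cluster of 16 Serpinb genes on mouse chromosome 13, and its neighbours, looked at after their values were seen, were split. Of the 16 genes 7 were tested, as were 12747 of the 27179 genes counted. Of these 7 genes 4 were called higher in ILC3, beside 6.46% of all tested genes. They were Serpinb1a, Serpinb1c, Serpinb6b and Serpinb9, which are the first 4 by position. The calls of Serpinb1a and Serpinb6b were lost without any 1 ILC3 library. Serpinb1c had 395, 440 and 393 counts in ILC3 and 1 and 0 in CD4 T. By scaled counts this was 888-fold higher in ILC3, with an exact 95% counting interval of 159 to 35100.0 (edgeR adjusted p = 0.00383). Serpinb6a, at the other end, was not called (log2 0.09, edgeR adjusted p = 0.894), and 9 of the 16 genes held 5 counts or fewer over all libraries.

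The granzyme cluster of chromosome 14 also holds mast cell chymase genes. Of its 16 genes, Cma1 had 3191 counts and Mcpt4 362 counts in ILC3 replicate 3 and 0 in every other library. Gzmb and Gzmc, at the far end of the cluster, had 8165 and 3469 counts in that library. They had 13930 and 7523 counts in ILC3 replicate 1 and 9148 and 4760 in ILC3 replicate 2. In CD4 T they had 6113 and 22 counts in replicate 1 and 22011 and 164 in replicate 2. These counts are not scaled for library size, and the part of mast cells in them was not tested.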
